A study of Mus musculus with 14 samples.

Results

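The Cyp3a cytochromes measured in these livers, with the nuclear receptor PXR (gene Nr1i2) and NADPH-cytochrome P450 reductase (gene Por), are 8 of the 15944 genes that could be matched to a probe, and are read by 10 of the 41174 distinct probes of the array. They were taken as every non-control probe whose gene name or current symbol is Cyp3a11, Cyp3a13, Cyp3a16, Cyp3a25, Cyp3a41a, Cyp3a44, Nr1i2 or Por, and each probe was kept apart. The members were chosen by the measured differences in log2 ratio between the 3 diets, so those differences, and which of them passed the test, are given as a description that restates the choice, with no p-value of a member, and nothing is read from the counts of members. The arrays measured liver RNA of male C57BL/6 mice aged 1 year and fed without restriction, with 1 array for each mouse. The 4 resveratrol mice ate high-calorie chow that also held 0.04% of the plant polyphenol resveratrol. The 5 high-calorie mice ate the same diet without it, which was AIN-93G altered so that 60% of calories came from fat. The 5 standard-diet mice ate AIN-93G. Every array carried the RNA of 1 mouse in Cy3 and, in Cy5, 1 pool made from 5 standard-diet livers, and each value below is the log2 ratio of the mouse to that pool. The dyes were never swapped, so the distance of a ratio from 0 has no reading and only differences between diets do. Nothing in the labels says whether RNA of the standard-diet mice on the arrays is part of the pool.

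PXR is a ligand-activated receptor of hepatocytes that pairs with RXR and switches on genes for the breakdown and export of drugs, steroids and bile acids. The Cyp3a enzymes are its best known targets and oxidise a very wide range of such compounds in the endoplasmic reticulum. All microsomal P450 enzymes, Cyp3a included, draw their electrons through P450 reductase. In the mouse, Cyp3a11 is the main Cyp3a enzyme of adult liver and the usual readout of PXR activity, Cyp3a41a and Cyp3a44 are expressed mainly in females, Cyp3a16 is known from the liver around birth, and Cyp3a13 is also an intestinal enzyme. In a piece of liver, fewer cells of a type and less RNA per cell cannot be told apart.

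All of these Cyp3a genes are on chromosome 5 of the mouse (GRCm38.p6), in 1 cluster apart from Cyp3a13, and 3 of those with the largest differences between diets have nearly the same sequence before the start. The 300 bases that the RefSeq promoter table gives around the start, most of them before it, are shown for 4 genes. These moved together on the arrays, and Cyp3a25, which is not printed, moved with them. The 4 are Cyp3a16 (chr5:145469674-145469973), Cyp3a41a (chr5:145720087-145720386), Cyp3a44 (chr5:145805825-145806124) and Cyp3a11 (chr5:145879805-145880104). All are read 5′ to 3′ on the minus strand, and capitals mark AGGTCA and AGTTCA, the short units that nuclear receptors bind in pairs, and TATAAA, wherever they occur on either strand.
Cyp3a16: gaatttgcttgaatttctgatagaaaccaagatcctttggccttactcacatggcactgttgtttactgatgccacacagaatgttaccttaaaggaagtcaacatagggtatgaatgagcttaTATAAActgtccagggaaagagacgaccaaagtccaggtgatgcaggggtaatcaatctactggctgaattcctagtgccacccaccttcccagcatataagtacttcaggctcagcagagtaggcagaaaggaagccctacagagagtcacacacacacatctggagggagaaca
Cyp3a41a: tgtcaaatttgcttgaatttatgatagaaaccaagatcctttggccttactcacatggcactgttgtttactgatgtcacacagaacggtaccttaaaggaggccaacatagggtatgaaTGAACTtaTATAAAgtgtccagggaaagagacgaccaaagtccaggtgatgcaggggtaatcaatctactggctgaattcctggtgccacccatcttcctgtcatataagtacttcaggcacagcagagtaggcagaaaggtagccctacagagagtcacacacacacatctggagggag
Cyp3a44: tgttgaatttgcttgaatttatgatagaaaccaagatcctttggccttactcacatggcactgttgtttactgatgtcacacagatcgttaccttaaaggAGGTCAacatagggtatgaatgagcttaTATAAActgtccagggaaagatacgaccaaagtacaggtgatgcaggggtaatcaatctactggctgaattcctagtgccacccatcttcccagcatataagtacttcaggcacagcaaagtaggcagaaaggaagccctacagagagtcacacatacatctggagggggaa
Cyp3a11: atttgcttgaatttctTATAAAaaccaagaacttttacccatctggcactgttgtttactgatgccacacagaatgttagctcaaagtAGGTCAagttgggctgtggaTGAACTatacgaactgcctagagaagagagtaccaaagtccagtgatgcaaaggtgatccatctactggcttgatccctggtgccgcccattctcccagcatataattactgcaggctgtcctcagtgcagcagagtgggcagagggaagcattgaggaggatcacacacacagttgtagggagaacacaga
Over a global alignment, the windows of Cyp3a16, Cyp3a41a and Cyp3a44 were 92.1 to 93.4% identical in pairs. Cyp3a11 was 70.4 to 74.8% identical to these 3, and the windows of the Cyp3a members were 42.1 to 46.0% identical to those of Nr1i2 and Por. Promoters of all 8 members were in the table. AGGTCA was present in 3 of them (Cyp3a11, Cyp3a25 and Cyp3a44), against 16.3% of the 32851 promoters of the same length. AGTTCA was found in Cyp3a11 and Cyp3a41a, both times as TGAACT on the printed strand, against 13.99% of all promoters. TATAAA was present in the 4 printed windows and in no other member, against 13.6% of all promoters. It starts at base -234 relative to the start in Cyp3a11, at -126 in Cyp3a16 and at -122 in Cyp3a41a and Cyp3a44. Cyp3a25 lacks it, yet Pearson's r over 14 arrays was 0.934 between its first probe and Cyp3a16 and 0.904 with Cyp3a11. Its second probe had 0.847 and 0.901, against 0.937 between Cyp3a11 and Cyp3a41a. Pairs of AGGTCA or AGTTCA, in any mix, read in the same direction with 3 bases between them were in none of the members and in 0.0122% of all promoters. Pairs facing away from each other with 6 bases between them were in no member either, and in 0.00913% of all promoters. TTCNNNGAA was in no member and in 8.30% of promoters, and TGACCTTTG was in Cyp3a25 alone among the members, where it overlaps that gene's AGGTCA, and in 0.478% of promoters. Such a match is a run of letters within this window and not a shown binding site.

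Of the 9 Cyp3a genes in the gene table that are not pseudogenes, 6 have a probe, while Cyp3a41b, Cyp3a57 and Cyp3a59 have none and were not analysed here. Cyp3a41a and Cyp3a41b share 97.0% of their promoter windows, Cyp3a25 and Cyp3a59 96.3%. Por lies on the same chromosome at 135670040 to 135735326, Cyp3a13 at 137892933 to 137925610 and Cyp3a11 at 145854607 to 145879854, whereas Nr1i2 is on chromosome 16 at 38248349 to 38294849. Cyp3a25 and Cyp3a44 have 2 probes each and the other genes have 1. The accession list of the Cyp3a11 probe names 3 genes, Cyp3a11, Cyp3a41a and Cyp3a44, so its signal may not be that of Cyp3a11 alone. The second Cyp3a25 probe is described in the scanner files as Cyp3a11 although its accessions are those of Cyp3a25. RNA of close relatives can bind to the same probe, and the probe sequences were not used here, so a value of any Cyp3a probe may hold signal of another Cyp3a gene.

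All 10 probes passed the filter on dim signals (4 or more arrays with a Cy3 signal well above background), and 9 of them were well above background in the animal channel on all 14 arrays. The exception was the probe named Cyp3a44 in the files, called the dim Cyp3a44 probe here, which was well above background on all 4 resveratrol and all 5 high-calorie arrays, against 1 of 5 standard-diet arrays. Its net Cy3 intensity averaged 45.3 ± 8.15 in resveratrol livers, 49.6 ± 12.3 in high-calorie livers and 30.5 ± 5.46 in standard-diet livers (± SD, intensity units, not scaled between arrays). The other Cyp3a44 probe, named by a protein accession, is called the bright one, at 4203 ± 1974 in resveratrol livers, 9562 ± 3267 in high-calorie livers and 1478 ± 505 in standard-diet livers. The Cyp3a41a probe read 8078 ± 4168 in resveratrol livers, 14626 ± 5532 in high-calorie livers and 2868 ± 642 in standard-diet livers. No member probe was saturated in either channel on any array. Intensities of different probes are not comparable with each other.

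Across the series, 77.8 to 92.4% of probes were well above background on each array, and the standard-diet array with the lowest share, replicate 2, was also the dimmest. The arrays were processed by the scanner software on 2 days and come from 2 series of slides. The first day holds 4 resveratrol, 2 high-calorie and 3 standard-diet arrays, the second 3 high-calorie and 2 standard-diet arrays. The first slide series holds 3 resveratrol and 2 high-calorie arrays, and the second series 1 resveratrol, 3 high-calorie and all 5 standard-diet arrays. Nothing in the labels says that mice with equal replicate numbers are paired, and a p-value here measures the spread between these 14 arrays.

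Resveratrol replicate 3 stood apart from the other resveratrol livers. Of 10 genes of the acute phase response, the set of plasma proteins that the liver raises in inflammation, 4 were saturated on every array and were left out, and the other 6 had their highest ratio of all 14 arrays in this liver. Their median log2 ratio was 2.45 in resveratrol replicate 3, against -2.01 to -0.74 in the other 3 resveratrol livers. It was -1.99 to -1.51 in the high-calorie livers and -1.89 to -1.26 in the standard-diet livers. Resveratrol replicate 4, at -0.74, thus also lay above every high-calorie and standard-diet liver. Serum amyloid A3 (Saa3) stood at 2.98 and lipocalin 2 (Lcn2) at 2.60 in resveratrol replicate 3. These genes were chosen after their values had been seen. The same liver had the lowest ratio among the resveratrol mice for 7 of the 9 well detected member probes. In the paragraphs on single members, each difference that involves the resveratrol diet is therefore given with and without it. Differences of other genes are given with it. The part of the acute phase genes in those differences was not tested.

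**Figure D1:**
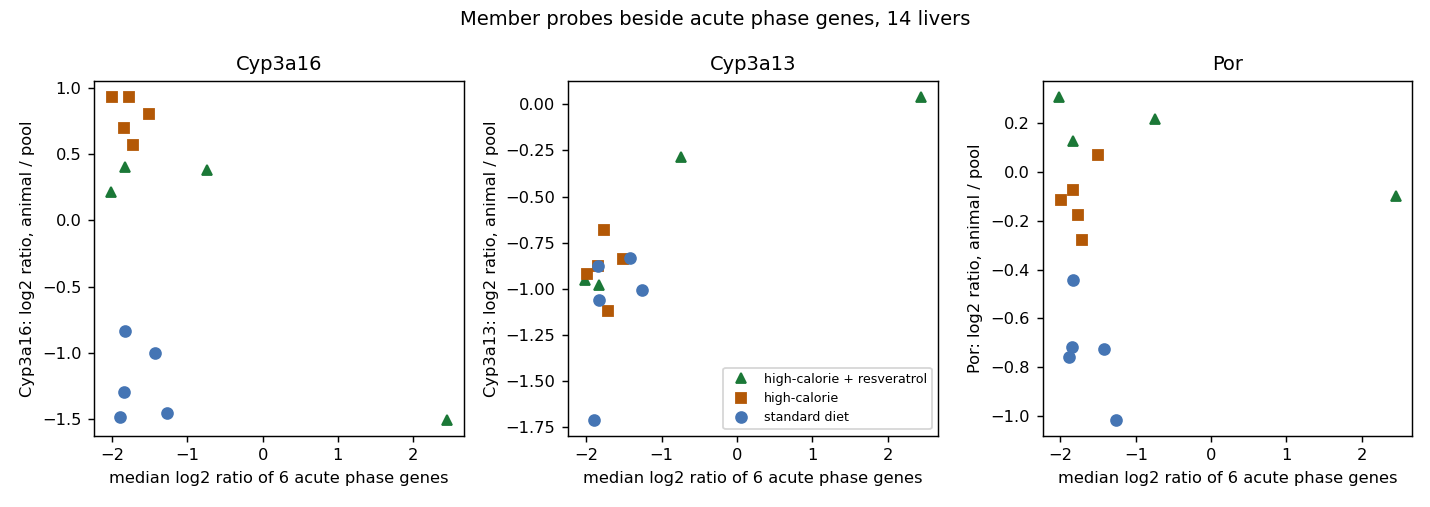
Log2 ratios (animal over pool) of Cyp3a16, Cyp3a13 and Por on the vertical axes against the median log2 ratio of 6 acute phase genes on the horizontal axis, 1 point per liver, for the resveratrol, high-calorie and standard diets. Resveratrol replicate 3 lies alone at 2.45 on the horizontal axis, with the lowest Cyp3a16 ratio (-1.51) and the highest Cyp3a13 ratio (0.04) of all 14 livers. The other 13 livers lie between -2.01 and -0.74, with resveratrol replicate 4 the highest of them.

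On the high-calorie diet, Cyp3a11, Cyp3a16, Cyp3a25, Cyp3a41a and Cyp3a44, which lie in 1 cluster on the chromosome, each rose on at least 1 probe relative to the standard diet, and so did Por. Cyp3a11, Cyp3a16 and the bright Cyp3a44 probe were each about 4-fold up, Cyp3a41a and the first Cyp3a25 probe about 3-fold, the second Cyp3a25 probe 2.19-fold and Por 1.53-fold. Cyp3a13, PXR itself and the dim Cyp3a44 probe did not pass the test. A probe passed when its limma p-value, adjusted by the Benjamini-Hochberg method over the 37136 probes tested, was under 0.05, and "rose" and "fell" are used for such probes only. In all, 7 of 10 member probes were called higher and none lower, where 5.32% of all tested probes were called higher and 3.73% lower. The same 7 probes had no overlap between the diets, as had 5.16% of all probes in that direction. These counts follow from how the members were chosen. The median difference was 1.36 over the member probes and -0.0008 over all probes.

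When resveratrol was added to the high-calorie diet, no member probe passed the test in either direction. limma called 0 of 10, where 4.91% of all tested probes were called, 2.77% higher and 2.14% lower, and 8 of 10 had an unadjusted p under 0.05, 7 of them lower and Por higher, where 21.5% of all probes did. The differences were -0.86 to -0.91 for Cyp3a11, Cyp3a16 and the bright Cyp3a44 probe, whose resveratrol values lay below all high-calorie values; 6.14% of all probes had that separation. The median was -0.67 over the member probes and -0.0082 over all probes.

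Between the resveratrol livers and the standard-diet livers, Por was the 1 member called, 1.83-fold higher, where 0.105% of all tested probes were called higher and 0.0781% lower. Cyp3a11, Cyp3a16, Cyp3a41a and the bright Cyp3a44 probe had differences of 1.05 to 1.19 that did not pass the test. Without resveratrol replicate 3, 6 of the 10 probes were called higher, namely these 4, the first Cyp3a25 probe and Por, where 0.339% of all tested probes were called higher and 0.18% lower. The median difference over all 14 arrays was 0.81 for the member probes and 0.0002 for all probes. The 3 comparisons share arrays in pairs, so that a high value in 1 diet enters 2 of them.

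**Figure D2:**
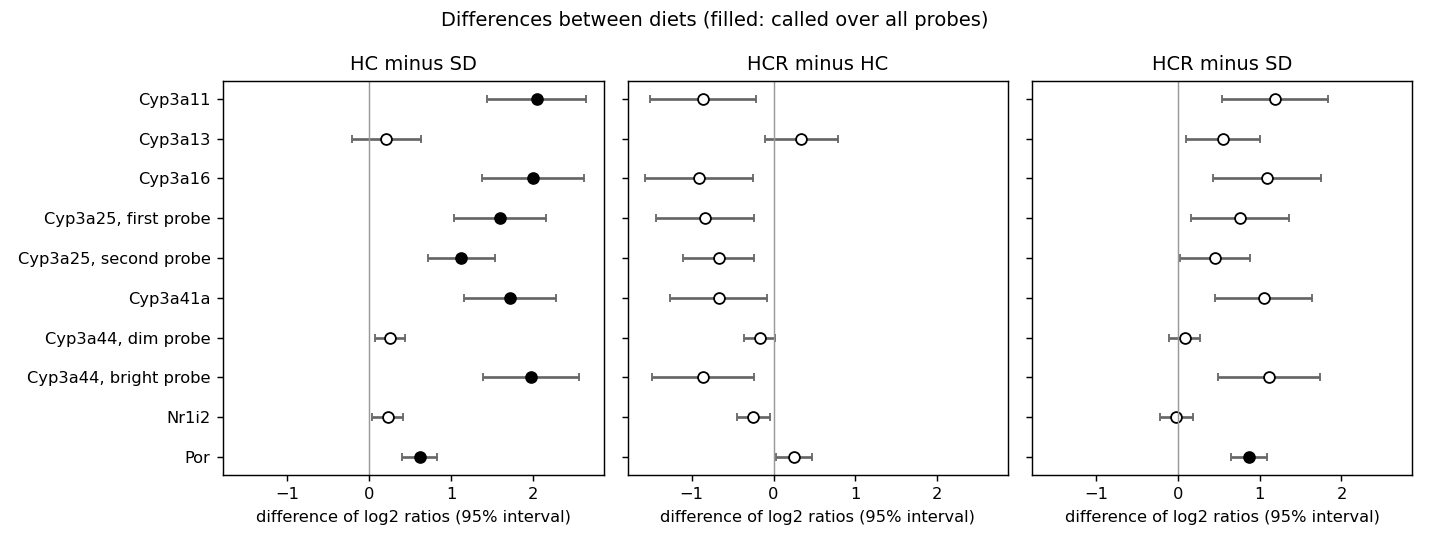
Difference of mean log2 ratios between diets for each of the 10 member probes, with its 95% confidence interval from limma, for high-calorie minus standard diet (HC minus SD), resveratrol minus high-calorie (HCR minus HC) and resveratrol minus standard diet (HCR minus SD). Filled points are probes called at an adjusted p under 0.05, which are 7 probes in the first panel, 0 in the second and 1 in the last.

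PXR is the receptor that the Cyp3a genes answer to, and its own RNA differed little between the diets. Its log2 ratio was 0.07, 0.31, 0.10 and 0.30 in the resveratrol livers, 0.55, 0.37, 0.52, 0.48 and 0.29 in the high-calorie livers and 0.13, 0.24, -0.07, 0.44 and 0.32 in the standard-diet livers. The ranges of all 3 diets overlapped, and the single lowest value belonged to a standard-diet liver. The high-calorie mean was 0.44 ± 0.11, against 0.21 ± 0.19 in standard-diet livers (± SD, n = 5 each), a difference of 0.23 ± 0.09 (SE) that was not called. Resveratrol livers averaged 0.19 ± 0.13 (SD, n = 4), which differed from the high-calorie livers by -0.25 ± 0.09 and from the standard-diet livers by -0.02 ± 0.09. The same differences without resveratrol replicate 3 were -0.22 and 0.01. The files name the Nr1i2 probe by the accession of a mouse cDNA clone and not by its symbol.

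Cyp3a11, the main PXR-responsive P450 of adult mouse liver, separated the high-calorie diet from both other diets. Its log2 ratio was 0.54, 0.26, -0.996 and 0.54 in the resveratrol livers, 0.72, 1.18, 0.94, 1.16 and 0.72 in the high-calorie livers and -0.80, -1.99, -1.04, -0.70 and -0.99 in the standard-diet livers. Every high-calorie liver exceeded every liver of the other diets, 3 of the 4 resveratrol livers lay between the diets, and resveratrol replicate 3 lay within the standard-diet range. The means were 0.94 ± 0.22 in high-calorie and -1.10 ± 0.51 in standard-diet livers, so that Cyp3a11 rose by 2.05 ± 0.28 (SE), or 4.13-fold, with a 95% confidence interval of 1.44 to 2.66 on the log2 scale. Resveratrol livers averaged 0.08 ± 0.73, which is -0.86 ± 0.30 from the high-calorie and 1.19 ± 0.30 from the standard-diet livers. Without resveratrol replicate 3 these became -0.50 and 1.55.

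Cyp3a16 and the bright Cyp3a44 probe, relatives of Cyp3a11, gave almost the same value on every array. Cyp3a16 stood at 0.40, 0.21, -1.51 and 0.38 in the resveratrol livers, at 0.57, 0.93, 0.93, 0.80 and 0.69 in the high-calorie livers and at -0.84, -1.48, -1.46, -1.002 and -1.30 in the standard-diet livers. The bright Cyp3a44 probe stood at 0.40, 0.22, -1.40 and 0.38 in the resveratrol livers, at 0.58, 0.92, 0.88, 0.79 and 0.65 in the high-calorie livers and at -0.86, -1.51, -1.42, -1.01 and -1.29 in the standard-diet livers. For both, the high-calorie livers lay above all others and 3 of the 4 resveratrol livers lay between the other two diets. Resveratrol replicate 3 lay just below the standard-diet range for Cyp3a16 and inside it for the Cyp3a44 probe. Cyp3a16 rose by 2.00 ± 0.29 (SE, 4.01-fold) on the high-calorie against the standard diet, and the Cyp3a44 probe by 1.98 ± 0.27 (3.95-fold). The difference between resveratrol and high-calorie livers was -0.91 ± 0.31 for Cyp3a16 and -0.87 ± 0.29 for the Cyp3a44 probe, and without resveratrol replicate 3 it was -0.45 and -0.43. Against the standard diet, the resveratrol livers differed by 1.09 ± 0.31 and 1.11 ± 0.29, and by 1.55 in each case without that liver.

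The dim Cyp3a44 probe is the 1 member probe near background. It stood at -0.18, -0.05, -0.21 and -0.41 in the resveratrol livers, at -0.20, -0.01, -0.04, -0.07 and 0.12 in the high-calorie livers and at -0.50, -0.35, -0.18, -0.08 and -0.36 in the standard-diet livers. The range of each diet overlapped those of both others. Its high-calorie minus standard-diet difference was 0.25 ± 0.08 (SE) and was not called, and its deviations from the diet means had a correlation of -0.06 with those of the bright probe over 14 arrays, which share 1 reference pool. Resveratrol livers differed by -0.17 from high-calorie and by 0.08 from standard-diet livers, with and without resveratrol replicate 3. Since 4 of the 5 standard-diet arrays were not well above background and the offset of 50 added to every signal shrinks the ratio of a probe this dim, its values do not show whether the 2 probes of the gene disagree. With an offset of 16 the difference was 0.50 and was called.

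Cyp3a41a, a P450 expressed mainly in female mice and read here in males, split the resveratrol livers. Its log2 ratio was 0.65, 0.22, -1.22 and 0.45 in the resveratrol livers, 0.48, 0.78, 0.82, 0.80 and 0.61 in the high-calorie livers and -0.80, -0.90, -1.28, -0.94 and -1.19 in the standard-diet livers. Resveratrol replicate 1 lay within the high-calorie range, replicate 3 within the standard-diet range and the other two between. Cyp3a41a rose by 1.72 ± 0.26 (SE, 3.29-fold) on the high-calorie against the standard diet. Resveratrol livers differed from high-calorie livers by -0.67 ± 0.28, and by -0.26 without resveratrol replicate 3. Their difference from standard-diet livers was 1.05 ± 0.28, and 1.46 without that liver.

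Cyp3a25, a P450 of liver and intestine, has 2 probes that moved the same way but by unequal amounts. The first stood at 0.09, 0.75, -1.17 and -0.11 in the resveratrol livers, at 0.57, 0.78, 0.83, 0.89 and 0.57 in the high-calorie livers and at -0.92, -1.01, -1.29, -0.77 and -0.37 in the standard-diet livers. The second stood at -0.04, 0.46, -0.39 and -0.04 in the resveratrol livers, at 0.41, 0.90, 0.57, 0.97 and 0.50 in the high-calorie livers and at -0.66, -0.98, -0.50, -0.16 and 0.02 in the standard-diet livers. On both probes resveratrol replicate 2 lay inside the high-calorie range and the high-calorie livers lay above all standard-diet livers. The first probe rose by 1.60 ± 0.26 (SE, 3.03-fold) and the second by 1.13 ± 0.19 (2.19-fold) on the high-calorie diet. Resveratrol livers differed from high-calorie livers by -0.84 ± 0.28 on the first probe and -0.67 ± 0.20 on the second. Without resveratrol replicate 3 these became -0.48 and -0.54. Against the standard diet, resveratrol livers differed by 0.76 ± 0.28 on the first probe and 0.46 ± 0.20 on the second. Without that liver the first probe was called, at 1.11, and the second was not, at 0.58.

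Cyp3a13, which lies apart from the others on the chromosome, passed the test in none of the comparisons. It stood at -0.98, -0.95, 0.04 and -0.29 in the resveratrol livers, at -1.12, -0.68, -0.92, -0.84 and -0.88 in the high-calorie livers and at -1.06, -1.71, -1.005, -0.83 and -0.88 in the standard-diet livers. The high-calorie and standard-diet values overlapped, and the highest value of all came from resveratrol replicate 3, where the other well detected Cyp3a probes had their lowest resveratrol value. The difference was 0.21 ± 0.20 (SE) for high-calorie minus standard diet, with a 95% confidence interval of -0.21 to 0.63. It was 0.34 ± 0.21 for resveratrol minus high-calorie and 0.55 ± 0.21 for resveratrol minus standard diet. The last 2 were 0.15 and 0.36 without resveratrol replicate 3, and none was called.

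Por, the electron donor of the microsomal P450 enzymes, had its highest mean on the resveratrol diet, as did Cyp3a13 alone among the other members. Its log2 ratio was 0.13, 0.31, -0.10 and 0.21 in the resveratrol livers, -0.28, -0.18, -0.12, 0.07 and -0.07 in the high-calorie livers and -0.44, -0.76, -1.01, -0.72 and -0.72 in the standard-diet livers. All resveratrol and all high-calorie livers lay above all standard-diet livers, and resveratrol and high-calorie livers overlapped. Por rose by 0.62 ± 0.10 (SE, 1.53-fold) on the high-calorie and by 0.87 ± 0.10 (1.83-fold) on the resveratrol diet, each against the standard diet, with 95% confidence intervals of 0.41 to 0.83 and 0.65 to 1.09. Resveratrol minus high-calorie was 0.25 ± 0.10 and was not called. Without resveratrol replicate 3, which had the lowest of the 4 resveratrol values, the difference from the standard diet was 0.95 and that from the high-calorie diet 0.33.

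**Figure D3:**
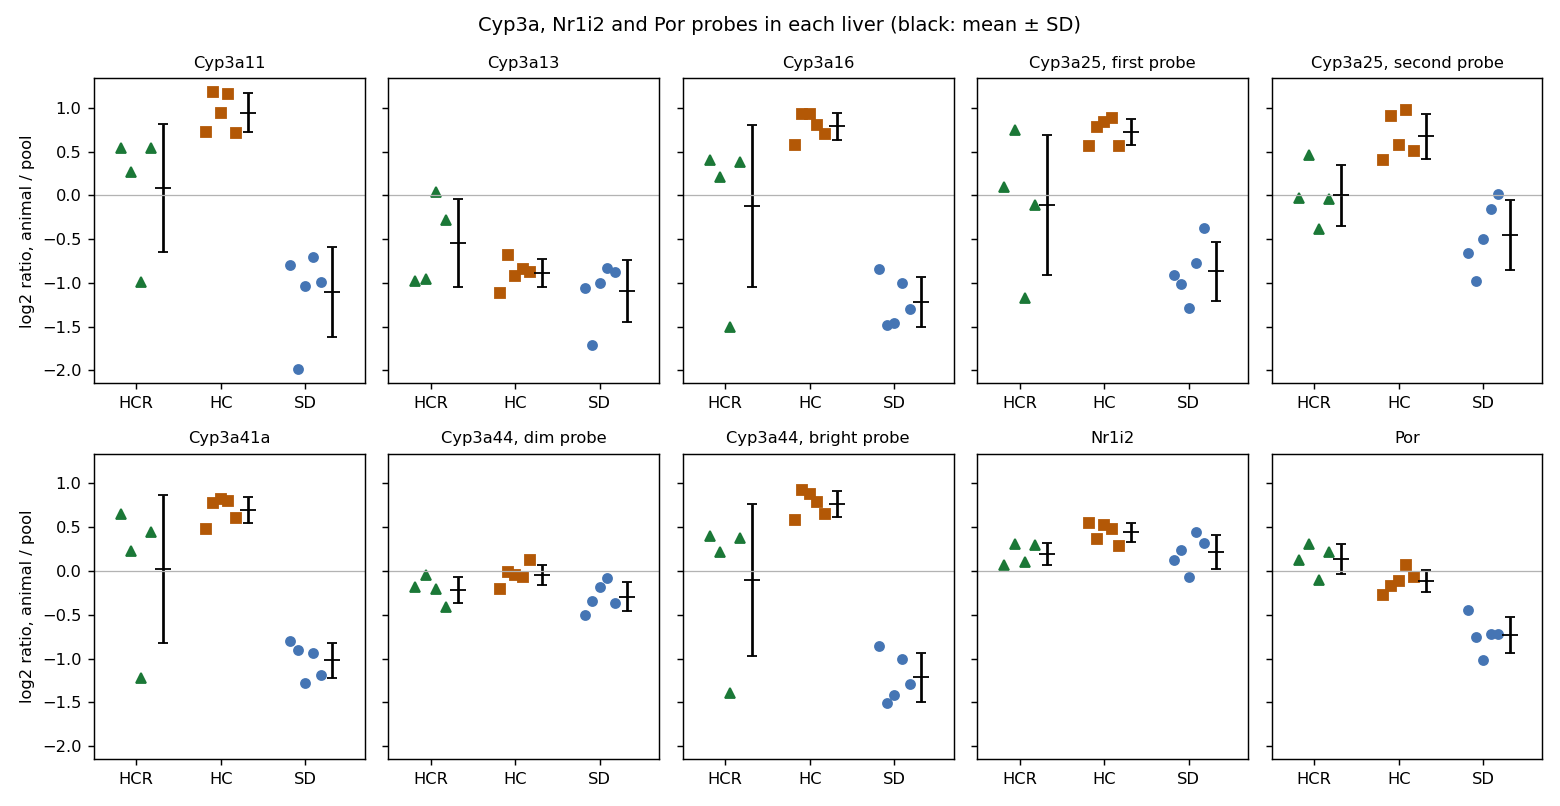
Log2 ratio of animal over pool for each of the 10 member probes, 1 panel per probe, with 1 point per liver for the resveratrol (HCR, n = 4), high-calorie (HC, n = 5) and standard (SD, n = 5) diets, and a black cross-bar at each group mean with a bar of 1 SD to each side. In 7 panels all high-calorie points lie above all standard-diet points, and the lone low resveratrol point, at -1.51 for Cyp3a16, is replicate 3.

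Within the day on which an image was processed and within a slide series, the 7 called probes had the signs given above for high-calorie minus standard diet. High-calorie minus standard diet was 1.79 on the first day, 2.43 on the second and 2.05 in the second slide series for Cyp3a11. The values were 1.78, 2.24 and 2.07 for Cyp3a16, and 1.78, 2.22 and 2.03 for the bright Cyp3a44 probe. They were 1.65, 1.78 and 1.76 for Cyp3a41a, 1.72, 1.42 and 1.60 for the first and 1.13, 1.14 and 1.12 for the second Cyp3a25 probe. Por gave 0.62, 0.62 and 0.61. Only 1 of the 7 called probes passed within the first day, the second Cyp3a25 probe, and 4 passed within the second. Each day holds 5 arrays of these 2 diets. Of all 37136 tested probes, 935 were called in either direction within the first day and 58 within the second. Resveratrol minus high-calorie was -0.86 on the first day, -0.91 in the first and -0.68 in the second slide series for Cyp3a11, and -0.81, -0.93 and -0.64 for Cyp3a16. For the first Cyp3a25 probe it was -0.84, -1.12 and 0.02, the last resting on 1 resveratrol array. For Por, resveratrol minus standard diet was 0.86 on the first day and not called. It was 1.04 in the second slide series, which holds 1 resveratrol array. With the slide series as a block it was 0.93 and not called.

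Within a diet the Cyp3a genes varied more from liver to liver than most probes, and for some of them much of that spread came from 1 liver. The SD of the log2 ratio around the diet means was 0.521 for Cyp3a16, 0.510 for Cyp3a11, 0.491 for the bright Cyp3a44 probe and 0.468 for Cyp3a41a, against a median of 0.0905 over all tested probes. The 7 well detected Cyp3a probes lay between the percentiles 97.8 and 99.5 of that spread. Without resveratrol replicate 3 they lay between 89.8 and 98.5, with an SD of 0.211 for Cyp3a16, 0.361 for Cyp3a11, 0.202 for the bright Cyp3a44 probe and 0.186 for Cyp3a41a, against a median of 0.0880. Over all 14 arrays Cyp3a13 had 0.352, Por 0.170 and Nr1i2 0.151. The medians and percentiles over all probes were not matched for brightness. The median net Cy3 intensity of an array was 48.5 to 113.7, and the offset of 50 shrinks the ratios of dim probes. The spread within a diet was larger in the animals' channel than in the pool's for every member probe but the dim Cyp3a44 probe. For Cyp3a16 the SD of the normalised log2 intensity was 0.503 in Cy3, the channel of the mice, and 0.0866 in Cy5, which held the same pool on every array. For Cyp3a11 it was 0.495 in Cy3 and 0.0879 in Cy5. The gap was smaller for the second Cyp3a25 probe, at 0.367 in Cy3 and 0.178 in Cy5. Nr1i2 had 0.197 in Cy3 and 0.113 in Cy5, and the dim Cyp3a44 probe 0.112 and 0.181. The high-calorie livers were close to each other, with an SD of 0.16 for Cyp3a16, against 0.28 in standard-diet livers and 0.92 in resveratrol livers. The last SD rests on resveratrol replicate 3 at -1.51, since the other resveratrol livers lay between 0.21 and 0.40.

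After the diet means were taken out, some members of the cluster still moved together from liver to liver, while others did so mainly through 1 array. As a description over 14 arrays that share the reference pool, r was 0.999 between Cyp3a16 and the bright Cyp3a44 probe and 0.994 without resveratrol replicate 3. Their ratios differed by 0.107 at most on any array, and cross-hybridisation between them was not tested. The correlation was 0.956 between Cyp3a16 and Cyp3a41a and 0.695 without that liver. For Cyp3a11 and Cyp3a41a it was 0.729 and, without that liver, 0.182. Cyp3a16 and the first Cyp3a25 probe had 0.753, and 0.132 without it, whereas the 2 Cyp3a25 probes had 0.734 and 0.739. Cyp3a11 and Cyp3a13 had 0.007 over 14 arrays and 0.785 over the 13 others. PXR and Por had 0.340, and 0.274 without that liver.

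**Figure D4:**
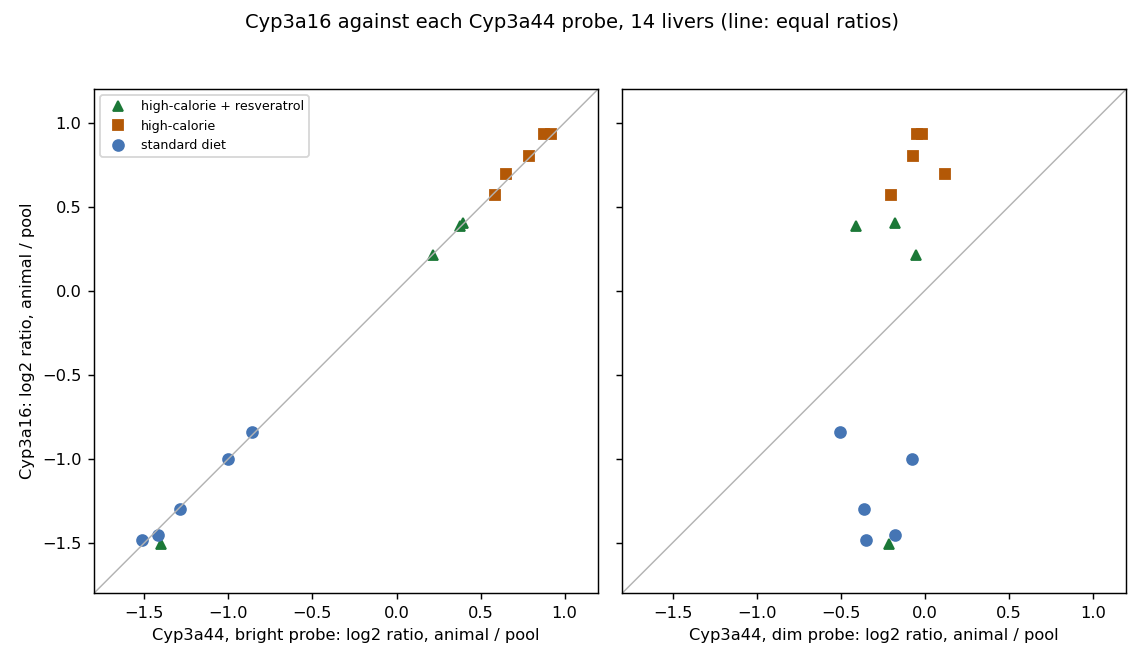
Log2 ratio of the Cyp3a16 probe against that of the bright Cyp3a44 probe and against that of the dim Cyp3a44 probe, 1 point per liver and 14 livers in each panel, coloured by diet. The bright probe differs from Cyp3a16 by 0.107 at most, while the dim probe stays between -0.50 and 0.12 in all livers.

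For each member, the 3 genes with the most similar pattern were taken by Pearson's r of log2 ratios over the 14 arrays, diets included, among 15038 genes outside the members, each read by its brightest probe. Those of Cyp3a11 included Acadm (r = 0.964), the medium-chain acyl-CoA dehydrogenase of mitochondria, and Prnp (0.947), the prion protein. Cyp3a16 was closest to Aldh3a2 (0.962), a fatty aldehyde dehydrogenase, Gstk1 (0.958), a mitochondrial and peroxisomal glutathione transferase, and Cyp4a14 (0.956), a fatty acid hydroxylase. Those of the bright Cyp3a44 probe included Aldh3a2 (0.959) and Gstk1 (0.959), and Cyp3a41a had Gstk1 (0.961), Cidea (0.953), a lipid droplet protein, and 4931406C07Rik (0.948). The first Cyp3a25 probe was closest to Rwdd3 (0.974), Acadl (0.970), the long-chain acyl-CoA dehydrogenase, and Khdrbs3 (0.965). Other neighbours were Olr1 (0.912), Golm2 (0.899) and Acaa1a (0.894) for Por, Vapb (0.898), Ube2h (0.879) and Slco3a1 (0.878) for Nr1i2, and Fh1 (0.916), Cd302 (0.916) and Skap2 (0.908) for Cyp3a13.

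Genes outside Cyp3a that PXR is known to induce were partly higher on the high-calorie diet. This list and the gene lists below were chosen with earlier results of these data known. Of 19 listed, 16 were tested, and 7 rose and none fell relative to the standard diet, with a median difference of 0.17. Over all tested probes 5.32% were called higher and 3.73% lower. Cyp2b10, a P450 shared with the receptor CAR, rose by 0.54 ± 0.05 (SE, adjusted p = 2.62e-05). Aldh1a7 and Aldh1a1, aldehyde dehydrogenases, rose by 1.05 ± 0.13 (adjusted p = 0.000279) and 0.82 ± 0.11 (0.000668), and Slco1a4, an uptake transporter for organic anions, by 0.76 ± 0.10 (0.000557). Cyp2c38, Ugt1a1 and Papss2 were the other three called, of which Ugt1a1 held its call in 6 and Papss2 in 4 of the 14 fits that left out 1 array. With resveratrol, 4 of the 16 fell relative to the high-calorie diet and none rose, with a median of -0.08. Over all tested probes 2.77% were called higher and 2.14% lower. The 4 were Cyp2b10 at -0.43 ± 0.05 (adjusted p = 0.00127), Slco1a4 at -0.63 ± 0.11 (0.00824), Cyp2c38 at -0.43 ± 0.08 (0.0130) and Ugt1a1 at -0.30 ± 0.06 (0.0163), the last a bilirubin glucuronosyltransferase. None of the 16 was called between resveratrol and standard diet, where 0.105% of all tested probes were called higher and 0.0781% lower.

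Partners and regulators of PXR changed in both directions. Of 19 tested, 2 rose and 2 fell on the high-calorie against the standard diet, with a median of -0.01, where 5.32% of all tested probes were called higher and 3.73% lower. Rxrg, a minor hepatic form of the RXR partner, rose by 0.49 ± 0.05 (SE, adjusted p = 0.000134) and Nr1i3, the gene of CAR, by 0.42 ± 0.11 (0.0369). Of those that fell, Hnf4a, the hepatocyte factor that helps to express PXR, had -0.15 ± 0.04 (0.0431), a sign that turned under 3 other scalings. The Nr1i3 call held in 6 of the 14 fits that left out 1 array, and that of Hnf4a in 5. The main hepatic partner Rxra had a difference of -0.01 ± 0.03, which was not called. With resveratrol, Rxrg at -0.28 ± 0.06 (adjusted p = 0.0141) and the glucocorticoid receptor Nr3c1 at -0.14 ± 0.03 (0.0239) fell relative to the high-calorie diet, and the Nr3c1 call held in 10 of the 14 fits. None was called between resveratrol and standard diet, where 0.105% of all tested probes were called higher and 0.0781% lower. In that comparison Rxrg had 0.20 ± 0.06 (adjusted p = 0.178).

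Por has partners in feeding electrons to P450 enzymes, and 2 of the 9 tested rose on the high-calorie against the standard diet with none falling. Over all tested probes 5.32% were called higher and 3.73% lower. The 2 were Pgrmc1, a heme protein that binds P450 enzymes, at 0.58 ± 0.12 (SE, adjusted p = 0.00847), and cytochrome b5 (Cyb5a) at 0.37 ± 0.08 (0.0160). With resveratrol Pgrmc1 fell by 0.46 relative to the high-calorie diet (adjusted p = 0.0474), a call that held in 3 of the 14 fits that left out 1 array, and no other partner was called. Among 9 enzymes outside drug metabolism that take electrons from Por, 1 rose and 1 fell on the high-calorie diet. Cyp8b1, which sets the hydroxylation of bile acids, rose by 0.83 ± 0.16 (adjusted p = 0.00594), and Cyp7b1, an oxysterol hydroxylase, had -1.06 ± 0.19 (0.00536). On the resveratrol diet 3 of the 9 were higher than on the high-calorie diet. Over all tested probes 2.77% were called higher and 2.14% lower there. The 3 were Cyp7b1 at 1.21 ± 0.21 (adjusted p = 0.00856) and the sterol synthesis enzymes Cyp51 at 0.37 ± 0.08 (0.0230) and Sqle at 0.93 ± 0.25 (0.0494). Cyp51 and Sqle were also called against the standard diet, at 0.59 ± 0.08 (adjusted p = 0.00916) and 1.44 ± 0.25 (0.0381), the comparison in which Por was called as well. In that comparison 0.105% of all tested probes were called higher and 0.0781% lower. The Sqle calls held in 4 of the 14 fits that left out 1 array for resveratrol against high-calorie and in 7 against the standard diet, and those of Cyp51 in 12 and 13. Of 8 genes of heme synthesis, which supplies the cofactor of all P450 enzymes, Cpox rose by 0.38 ± 0.08 (0.0143) on the high-calorie diet and Urod had -0.30 ± 0.08 (0.0307), whose sign turned when arrays were centred on their medians and whose call held in 7 of the 14 fits that left out 1 array.

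Because Cyp3a41a and Cyp3a44 are mainly female enzymes, genes of male or female bias in mouse liver were set beside them. Over all tested probes 5.32% were called higher and 3.73% lower on the high-calorie against the standard diet. Of 10 female-biased genes tested, 5 rose and none fell on the high-calorie against the standard diet in these male livers, with a median of 0.22, among them Cyp2b9 at 3.25 ± 0.33 (SE, adjusted p = 0.000110) and Cyp2a4 at 1.74 ± 0.28 (0.00203). Of 13 male-biased genes, 10 fell and none rose, with a median of -1.08, among them Hsd3b5 at -4.19 ± 0.33 (adjusted p = 1.85e-05) and Slco1a1 at -3.23 ± 0.23 (9.01e-06). With resveratrol, 4 of the 10 female-biased genes fell and 6 of the 13 male-biased genes rose relative to the high-calorie diet. In that comparison 2.77% of all tested probes were called higher and 2.14% lower. Cyp2b9 had -2.45 ± 0.35 (adjusted p = 0.00412) and Slco1a1 2.27 ± 0.24 (0.000923). None of either list was called between resveratrol and standard diet, where 0.105% of all tested probes were called higher and 0.0781% lower. The smallest adjusted p were those of Hsd3b5 at -1.60 ± 0.35 (0.0907) and Slco1a1 at -0.96 ± 0.24 (0.149) among male-biased genes. Among female-biased genes they were those of Cyp4a14 at 1.88 ± 0.59 (0.263) and Cyp2b9 at 0.80 ± 0.35 (0.440). A lack of calls does not show equal levels. The first 2 comparisons use the same high-calorie arrays.

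The liver label was checked on hepatocyte markers. Of 10 listed, 8 had a tested probe and all 8 were well above background on all 14 arrays. Albumin and Ahsg were saturated in Cy5 on 14 arrays and Hpx on 8, and in Cy3 albumin was saturated on 11 and Ahsg on 2, so their ratios and the sums that hold them are compressed. Ahsg at -0.74 ± 0.18 (SE, adjusted p = 0.0209) and Apoa1 at -0.64 ± 0.17 (0.0368) fell on the high-calorie against the standard diet and none of the 8 rose, and with resveratrol Ahsg rose by 0.71 ± 0.19 (0.0453) relative to the high-calorie diet. The summed net Cy3 intensity of the hepatocyte list was 143863 to 202443 in resveratrol livers, 132225 to 200976 in high-calorie livers and 90171 to 174120 in standard-diet livers. This sum and those below are not scaled between arrays. The median net Cy3 intensity was 48.5 to 85.3 on standard-diet and 57.4 to 113.7 on high-calorie arrays. The mean normalised log2 ratio of the hepatocyte list was 0.53 to 1.38 in resveratrol, 0.11 to 0.51 in high-calorie and 0.53 to 0.69 in standard-diet livers. In the same order it was -0.87 to 0.28, -0.59 to -0.32 and -0.98 to -0.65 for Kupffer cell genes. For adipocyte genes it was 0.02 to 0.68, 0.02 to 0.39 and -0.52 to -0.36. Markers of other cells moved with the diet as well. Over all tested probes, 5.32% were called higher and 3.73% lower on the high-calorie against the standard diet. With resveratrol against the high-calorie diet, these shares were 2.77% and 2.14%. Of 7 stellate cell genes tested, 4 rose and 1 fell on the high-calorie diet, led by the collagen Col3a1 at 0.75 ± 0.10 (SE, adjusted p = 0.000423), and with resveratrol 3 fell relative to the high-calorie diet. The summed intensity was 2576 to 3634 in resveratrol, 2738 to 5330 in high-calorie and 1905 to 3798 in standard-diet livers. Of 6 adipocyte genes, Cfd at 2.52 ± 0.31 (adjusted p = 0.000338) and Fabp4 at 1.60 ± 0.31 (0.00658) rose and Retn fell, with sums of 1285 to 2421, 1030 to 2586 and 551 to 899 for the resveratrol, high-calorie and standard diets. Adipoq at -0.09, Plin1 at -0.08 and Lep at 0.11 were not called on the high-calorie against the standard diet, and the median of the 6 was 0.01. None of the 10 Kupffer cell genes was called between high-calorie and standard diet, with sums of 2303 to 8067 in resveratrol, 2511 to 7393 in high-calorie and 1446 to 3480 in standard-diet livers. With resveratrol, Csf1r rose by 0.28 ± 0.06 (adjusted p = 0.0157) relative to the high-calorie diet. Of 6 cholangiocyte, 6 endothelial and 6 B and T cell genes, Spp1 at 0.76 ± 0.17 (adjusted p = 0.0149) and Pecam1 at 0.22 ± 0.06 (0.0250) rose on the high-calorie diet and no other was called in any comparison. No marker was at 0, and the lowest net Cy3 intensity was 23.5, for the stellate gene Des, which was well above background on 3 arrays. The part of these cells in the differences of the Cyp3a genes was not tested.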

How the data were processed

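Liver RNA of 14 mice was measured on two-colour Agilent whole-genome mouse arrays grouped by the labels. RNeasy kits (Qiagen) and linear amplification were used, per the labels, with the mouse in Cy3 and the pool in Cy5. The deposited files give the intensity of every spot and its background in both channels, and processed signals, from Feature Extraction 7.5.1, per the file headers. A second deposited table gives a score per spot, each column with an SD of 1, by steps not given in the sources.

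Each array has 43790 spots, of them 2256 controls. Mean signals were corrected with normexp (offset 50), and each array's log2 ratios were loess-normalised, with control and outlier spots at weight 0. The 576 outlier spots were then dropped and spots of a probe averaged. A probe was tested if its Cy3 signal was well above background on 4 or more arrays, as for 37136 of 41174, of which 486 lacked a value on some array; no member did. limma 3.58.1 in R 4.3.3 fitted the 3 diets in 1 model, with Benjamini-Hochberg adjustment over all tested probes in each comparison. The fit was tested on simulated data. Matching by name and accession to RefSeq genes (GRCm38.p6) gave 20859 probes a single gene. Promoter windows came from RefSeq (GRCm38.p6), and pairs were aligned globally. All member probes are named. Some other genes that the rules below would name are not reported here. From each list up to 4 called genes with the smallest adjusted p were eligible to be named, or up to 2 where none was called, each gene read by its brightest probe. Rxra and the adipocyte genes that were not called are named as well. The acute phase genes, the values within a slide series and the spread without resveratrol replicate 3 were added after seeing the data. The members and the lists were chosen with earlier results of these data known. Alternatives in background correction, scaling, filter, weights, blocks and left-out arrays are given at the end.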

Additional observations from a re-analysis of the deposited data

Results flagged for a closer look

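In 4 of 30 combinations of a member probe and a diet, 1 liver lay far from the others of its diet, by the gap to its nearest neighbour as a share of the whole range (Dixon's 95% critical value, which chance passes in about 5% of groups). Cyp3a16 stood at -1.51 in resveratrol replicate 3, against 0.21 to 0.40 in the other resveratrol livers, and the bright Cyp3a44 probe at -1.40, against 0.22 to 0.40. Both readings belong to the liver with the highest acute phase genes. The 2 probes gave nearly equal values on every array, so they are not separate evidence. In standard-diet replicate 2, Cyp3a11 stood at -1.99, against -1.04 to -0.70 in the other standard-diet livers, and Cyp3a13 at -1.71, against -1.06 to -0.83. That array was the dimmest of the 14, with a median net Cy3 intensity of 48.5 and 77.8% of probes well above background.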

How the results depend on the processing

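The 7 rises on the high-calorie against the standard diet kept their sign under every setting run. Their number was 7 or 8 when 1 array was left out, but 1 within the first image processing day and 4 within the second. Fewer arrays were fitted within a day. Of all tested probes, 1506 to 6545 were called with 1 array left out, 935 within the first day and 58 within the second. Between resveratrol and high-calorie livers, 0 member probes were called, against 1 with no background subtraction and 0 to 2 with 1 array left out (the second Cyp3a25 probe without standard-diet replicate 2 or 5, and both Cyp3a25 probes without resveratrol replicate 2). Of all tested probes, 2869 were called with no background subtraction and 369 to 2798 with 1 array left out. Between resveratrol and standard diet, 1 was called, against 0 with the deposited scores, 0 with the slide series as a block and 0 within the first day. The number was 4 with array weights and 1 to 6 with 1 array left out (6 without resveratrol replicate 3). Of all tested probes, these settings called, in the same order, 4, 4, 65, 164 and 20 to 238. The high-calorie minus standard-diet difference reversed for Hnf4a under median centring (0.0023), the Cy3 channel alone (0.11) and the deposited scores (0.0505), and for Urod under median centring (0.0005); the cause was not tested. The dim Cyp3a44 probe ranged from -0.04 to 0.80 in that comparison and was called in 5 settings, and Nr1i2 was called under median centring (0.36). Por was not called there with the deposited scores (0.27, score units). Over all probes, the calls numbered 3359 for high-calorie minus standard diet (58 to 7611 over the settings), 1824 for resveratrol minus high-calorie (0 to 3331) and 68 for resveratrol minus standard diet (4 to 238). Called probes were higher in 58.8%, 56.4% and 57.4% of cases, against 77.8%, 25.0% and 83.3% under median centring, 72.8%, 27.0% and 71.4% with Cy3 alone, and 80.7%, 35.8% and 100% with the deposited scores. Whether equal replicate numbers pair the mice is not known. Of 13 same-numbered pairs, 4 had a correlation of deviations over 0.1 (range -0.19 to 0.31), which cannot show whether mice were paired. With the replicate block the difference for Cyp3a11 was 2.05 on high-calorie against standard diet and -0.87 on resveratrol against high-calorie diet. Por was 0.88 on resveratrol against standard diet. In these comparisons, in that order, 7, 0 and 1 member probes were called, and 3180, 438 and 51 of all tested probes. With this block, 2 rather than 4 PXR targets outside Cyp3a fell with resveratrol against the high-calorie diet. Background signal limits the dim Cyp3a44 probe, and cross-hybridisation between Cyp3a genes was not tested.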
